A study of Mus musculus with 6 samples.

Results

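Oxidative phosphorylation is carried out by 5 protein complexes of the inner mitochondrial membrane, and the genes of their subunits are described here in C2C12 cells, an established mouse myoblast line. The genes were taken from the expression table by symbol: the numbered Nduf subunit families (complex I), Sdha to Sdhd (complex II), Uqcr genes and Cyc1 (complex III), Cycs (cytochrome c), Cox4 to Cox8 genes (complex IV), Atp5 genes (complex V) and the protein genes of mitochondrial DNA (mtDNA). This gave 104 of the 22375 rows, of which 91 are encoded in the nucleus and 13 in mtDNA. The rule used symbols and no measured value. It did not reach Ndufab1, a complex I subunit whose symbol has another form (log2 fold change between stretched and control cells -0.21, limma adjusted p = 0.00614), and it did include the pseudogene Cox5b-ps. Ndufa4 and Ndufa4l2 were counted with complex IV, where the Ndufa4 protein is found.

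Complexes I to IV pass electrons from NADH and succinate to oxygen, and complexes I, III and IV pump protons as they do so. Complex V, ATP synthase, lets the protons flow back and makes ATP. Most subunits come from nuclear genes and are imported, while a small set of core subunits of complexes I, III, IV and V is made inside the organelle from mtDNA, so that each of these 4 complexes needs products of both genomes. Mitochondrial content and the muscle isoforms of some subunits are known to rise as myoblasts become muscle fibres.

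RNA-seq was done on 3 libraries of cells that were not stretched (CON) and 3 libraries of cells stretched cyclically at 15% elongation for 4 h (4H), to mimic mechanical overload. Both groups were the same purchased line, kept in medium with fetal bovine serum, and cells to be loaded were seeded on elastic plates coated with poly-lysine. The labels give replicate numbers but do not state separate cultures, so the p-values below measure the spread between these samples, which may be technical. The values are FPKM, fragments per kilobase of transcript scaled to the mapped fragments of the library, which permit levels to be compared between genes per length. The read counts behind them were not given, so no counting interval can be set beside a value. Low values placed the depths of any 2 libraries within 1.58% of each other, though each such estimate rested on only 10 to 21 genes. All FPKM of a library summed to 395790 to 397260 in CON and 385146 to 387516 in 4H. In bulk RNA, less RNA of a gene per cell and fewer cells that express it cannot be told apart.

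The myoblast label was checked first. All 8 myoblast markers reached 0.5 FPKM in at least 1 library, with Myod1, the muscle determination factor, at 4.48 to 5.55 FPKM in CON and 17.4 to 18.8 FPKM in 4H. Of the 7 that could be tested, Myod1, Itga7, Cdh15, Vim and Des rose (log2 fold changes from 0.31 to 1.74), Myf5 fell from 15.8 to 9.82 FPKM (log2 fold change -0.67, limma adjusted p = 0.000347) and Ncam1 did not pass (log2 fold change -0.03, limma adjusted p = 0.635), while Pax7 was below the filter. Differentiated muscle markers were low, with a summed level of 2.85 to 3.29 FPKM in CON and 6.96 to 7.85 FPKM in 4H, and most of it was Actn3, which rose from 2.18 to 6.02 FPKM (limma adjusted p = 1.60e-05), with Mymk rising from 0.525 to 1.01 FPKM (limma adjusted p = 0.0194). Myog was at 0.281, 0.136 and 0.235 FPKM in CON and at 0.0794, 0 and 0 FPKM in 4H, Ckm did not exceed 0.0428 FPKM, and neither was tested. Macrophage markers summed to 6.73 to 8.51 FPKM in CON and 16.5 to 18.5 FPKM in 4H, most of it Cd68, which rose (log2 fold change 1.07, limma adjusted p = 4.11e-05). Csf1r was at 0, 0 and 0.0272 FPKM in CON and 1.48, 0.966 and 0.792 FPKM in 4H and entered the test only through its level in 4H, while Ptprc, Adgre1 and Tyrobp were listed at 0 in every library. Endothelial, epithelial and adipocyte markers each summed to less than 0.707 FPKM in any library. The part of these marker changes in the results below was not tested.

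After 4 h of stretch the nuclear genes of oxidative phosphorylation were broadly a little lower, and the mtDNA genes as a group were near their control level. Of the 82 nuclear members that averaged 0.5 FPKM or more in these libraries, 48 fell, 1 rose and 33 did not pass the test (limma on log2(FPKM + 0.5), two-sided, adjusted p of at most 0.05 over 11593 genes). Over all genes tested, 24.1% fell and 22.6% rose, so the 58.5% of tested nuclear members that fell were above that background. The median log2 fold change (4H minus CON) of the tested nuclear members was -0.22, beside -0.01 for all tested genes. Only Cox6a2 also passed an absolute log2 fold change of 1, a call made for 3.88% of all tested genes, and it entered the test only through its level in CON. Every 4H library lay below every CON library for 51 nuclear members, where this held for 29.2% of all tested genes, and above for 1, where it held for 27.5%. Of the 13 mtDNA genes, all tested, 2 fell, 1 rose and 10 did not pass, with a median of -0.0022.

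**Figure D1:**
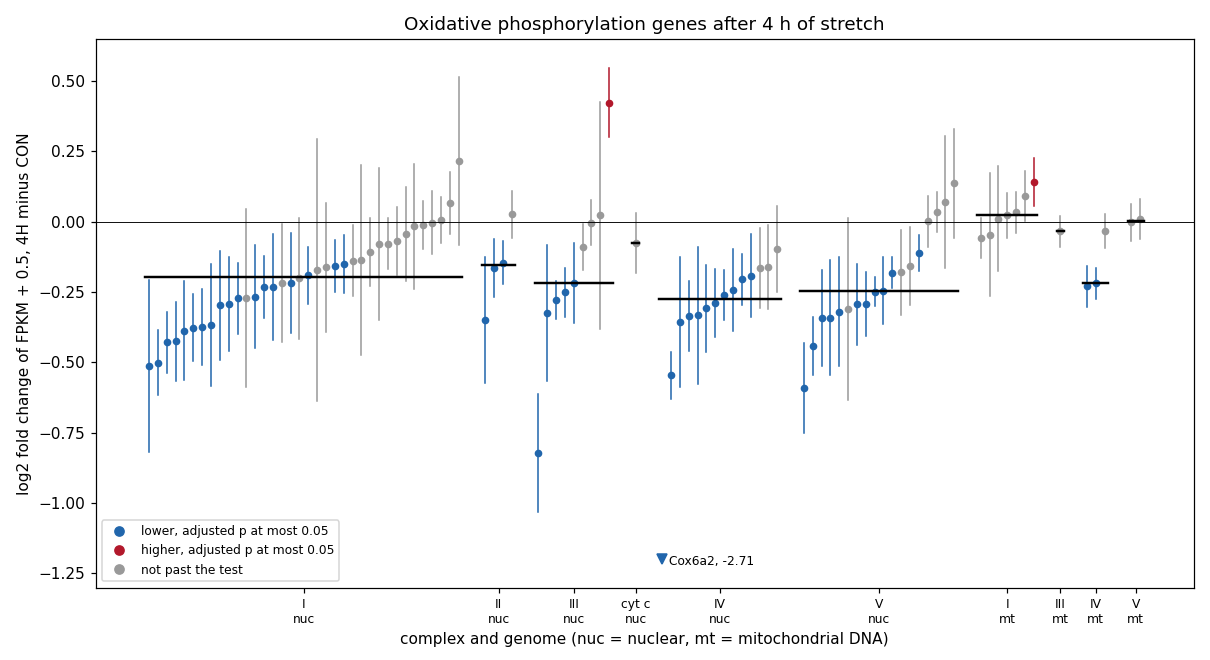
The log2 fold change (4H minus CON, of FPKM + 0.5) of each of the 95 tested genes, grouped by complex and genome and sorted within each, with 95% confidence intervals from limma as vertical lines and group medians as black bars. The nuclear medians lie between -0.27 (complex IV) and -0.07 (cytochrome c), Uqcrh is the only nuclear gene that rose, and Cox6a2 at -2.71 is drawn at the lower edge as a triangle with no interval.

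The levels behind these changes were added up. The 91 nuclear members together had 6131, 5953 and 6247 FPKM in CON replicates 1, 2 and 3 and 5118, 5399 and 5389 FPKM in 4H replicates 1, 2 and 3. The 3 stretched libraries all lay below the 3 controls, and the nuclear members took 1.54% ± 0.03 (SD, n = 3) of all FPKM in CON and 1.37% ± 0.04 in 4H. The 13 mtDNA genes had 37291, 38086 and 36570 FPKM in CON and 36574, 36208 and 37332 FPKM in 4H, so their groups overlapped, and their share was 9.41% ± 0.21 in CON and 9.50% ± 0.15 in 4H. Sums give most weight to the highest genes.

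The fall was not of equal depth in the stretched libraries. Set against the CON mean of each gene, the median over the 82 nuclear members was 0.01, -0.04 and 0.03 on the log2 scale in CON replicates 1, 2 and 3, and -0.26, -0.18 and -0.16 in 4H replicates 1, 2 and 3. The 4H replicate 1 library was the lowest, most of all in complex IV, where its median was -0.38 beside -0.20 and -0.24 in the rest, but not in complex II, where it was the highest of the stretched libraries (-0.15 beside -0.17 and -0.15). Without 4H replicate 1, 40 nuclear members fell and the tested nuclear members together had a median log2 fold change of -0.18, and without CON replicate 1, the control whose loss cost most calls, 38 fell and that median was -0.20. In all 6 fits that left out 1 library, 34 of the 48 members that fell were called lower each time.

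**Figure D2:**
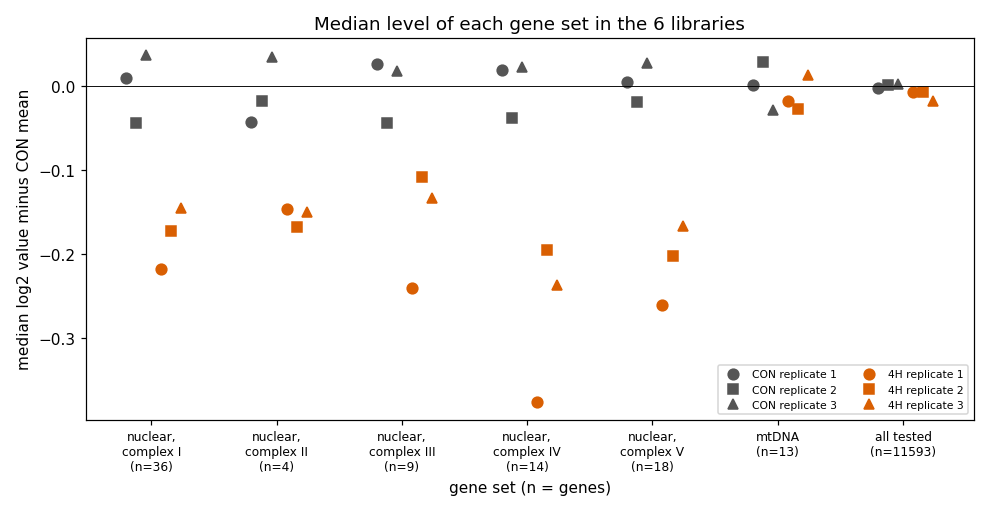
The median, over the tested genes of each set, of the log2 value minus the CON mean of that gene, with grey symbols for the 3 CON libraries and orange symbols for the 3 4H libraries. In each nuclear complex the 3 4H libraries lie below the 3 CON libraries, while for mtDNA genes and for all tested genes they lie close to 0.

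Complex I takes electrons from NADH. Of 37 nuclear members 36 were tested. Of these 18 fell (50.0%, beside 24.1% of all tested genes) and none rose (0 at adjusted p of at most 0.05 in limma, beside 22.6%). The median log2 fold change was -0.20. The falls included the catalytic core and the accessory subunits that surround it, 3 of 7 and 15 of 29 tested, with medians of -0.15 and -0.22. Ndufb11b, the member left out, was listed at 0 in every library.

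Within the core the members went apart. Ndufv1, the flavoprotein that binds NADH, was at 69.5, 72.9 and 76.2 FPKM in CON and 54.1, 56.4 and 51.5 FPKM in 4H. All stretched values lay below all controls, and Ndufv1 fell by 0.43 on the log2 scale (SE 0.05, limma adjusted p = 0.000158). Ndufs8, an iron-sulphur subunit, fell by 0.38 (SE 0.05, limma adjusted p = 0.000555). Ndufs1, the largest subunit of the peripheral arm, had group means of 52.7 ± 0.7 and 52.9 ± 1.7 FPKM (SD, n = 3), and its log2 fold change lay between -0.08 and 0.09 (95% confidence interval).

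Among the accessory subunits, Ndufa5 and Ndufs6 had the largest falls. Ndufa5, of the peripheral arm, was at 15.6, 14.4 and 14.6 FPKM in CON and 8.82, 13.1 and 9.24 FPKM in 4H, a log2 fold change of -0.51 (SE 0.13, limma adjusted p = 0.0136). Its 4H replicate 2 lay close to the controls while replicates 1 and 3 were well below. Ndufs6, a zinc-binding subunit added late in assembly, was at 34.5, 31.9 and 36.0 FPKM in CON and 24.1, 24.4 and 23.4 FPKM in 4H, a fall of 0.50 on the log2 scale (SE 0.05, limma adjusted p = 0.000102). The Ndufs6 groups were far apart relative to their spread. Ndufs6 shares exon sequence on the other strand with Mrpl36, which had a log2 fold change of -0.17 (limma adjusted p = 0.177). Whether the counting used strand is not given in the sources used here.

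Complex II, succinate dehydrogenase, also belongs to the citric acid cycle and is the only complex made without mtDNA. Sdha, which binds the flavin, was at 66.8, 67.8 and 70.6 FPKM in CON and 62.6, 61.7 and 60.9 FPKM in 4H, a fall of 0.15 on the log2 scale (SE 0.03, limma adjusted p = 0.00762). Sdhb, the iron-sulphur subunit, fell by 0.16 (SE 0.04, limma adjusted p = 0.0165), from 54.8 ± 3.0 to 48.8 ± 0.9 FPKM. Sdhc, a membrane anchor, fell by 0.35 (SE 0.10, limma adjusted p = 0.0187), from 23.2 ± 2.9 to 18.1 ± 1.6 FPKM. Sdhd, the other anchor, had overlapping groups at 69.6 ± 2.2 and 70.9 ± 1.8 FPKM (SD, n = 3), and its interval ran from -0.06 to 0.11. The Sdhb call was lost without CON replicate 1, CON replicate 3 or 4H replicate 2 (limma adjusted p of 0.0540, 0.0543 and 0.0530), and that of Sdhc without CON replicate 3 or 4H replicate 3 (limma adjusted p of 0.0524 and 0.0593).

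Complex III passes electrons from quinol to cytochrome c, and it held the only nuclear gene that rose. Of its 9 members, 5 fell (55.6%, beside 24.1% of all tested genes), 1 rose (where 22.6% of all tested genes did) and 3 did not pass. The median log2 fold change was -0.22. Uqcrh, the small acidic hinge subunit beside cytochrome c1, is the gene ENSMUSG00000063882 at chr4:116066965-116075071 on the minus strand of mm10. It was at 69.7, 62.7 and 66.9 FPKM in CON and 83.3, 91.2 and 93.4 FPKM in 4H. All 3 stretched libraries were above all 3 controls, and Uqcrh rose by 0.42 on the log2 scale (SE 0.05, 95% confidence interval 0.30 to 0.55, limma adjusted p = 0.000364). The rise was called in all 6 fits that left out 1 library. Of the 75-base stretches of its transcripts, 2.56% also occur in the pseudogene Uqcrh-ps1.

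Uqcrq went the other way. This small subunit, ENSMUSG00000044894 at chr11:53427922-53430831 on the minus strand, was at 53.9, 51.3 and 53.5 FPKM in CON and 26.9, 35.1 and 27.7 FPKM in 4H. The controls were tight, the stretched values were spread, and none overlapped. Uqcrq fell by 0.82 on the log2 scale (SE 0.09, limma adjusted p = 0.000173), the deepest fall among nuclear members above 5 FPKM. None of its 75-base stretches occurs in transcripts of another gene.

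Cyc1, the cytochrome c1 that hands electrons on, fell from 101 ± 2 to 83.1 ± 1.0 FPKM (SD, n = 3; log2 fold change -0.28, SE 0.03, limma adjusted p = 0.000127). Uqcr11, another small subunit, was at 49.9, 44.99 and 49.4 FPKM in CON and 32.1, 39.4 and 44.2 FPKM in 4H, with a log2 fold change of -0.33 (SE 0.10, limma adjusted p = 0.0339). The call for Uqcr11 was lost without CON replicate 1, CON replicate 3 or 4H replicate 2, where its limma adjusted p was 0.0588 to 0.0970, and under 4 other settings. Uqcrc1 and Uqcrc2, the paired core proteins, differed, since Uqcrc1 had means of 84.2 and 84.0 FPKM with an interval of -0.08 to 0.08, while Uqcrc2 fell from 64.9 ± 2.7 to 54.4 ± 0.5 FPKM (limma adjusted p = 0.000847).

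Cycs, the cytochrome c that carries electrons from complex III to complex IV, was at 46.7, 47.2 and 51.5 FPKM in CON and 44.8, 47.5 and 45.5 FPKM in 4H. The groups overlapped, and the log2 fold change was -0.07 (95% confidence interval -0.18 to 0.03).

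Complex IV, cytochrome c oxidase, reduces oxygen. It had 21 nuclear members, of which 14 were tested. Of these 11 fell (78.6%, beside 24.1% of all tested genes) and none rose (0 at adjusted p of at most 0.05 in limma, beside 22.6%). Their median log2 fold change was -0.27. Several of its subunits exist as pairs of genes for different tissues. The untested ones were at or near 0, with Cox8b and Cox8c listed at 0 in every library and Cox4i2, Cox6b2, Cox7a1, Cox7b2 and Ndufa4l2 at no more than 0.538 FPKM in any library.

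Cox6a2, the heart and skeletal muscle form of subunit 6a, had the largest change of all members. This gene, ENSMUSG00000030785 at chr7:128205435-128206387 on the minus strand, was at 4.04, 4.72 and 3.47 FPKM in CON and 0.142, 0.313 and 0.138 FPKM in 4H. The lowest control was far above the highest stretched library, the 4H mean was 0.0485 times the CON mean, and the log2 fold change of FPKM + 0.5, which understates changes of low values, was -2.71 (SE 0.15, limma adjusted p = 3.76e-06). The call held in all 6 fits that left out 1 library. Its exons overlap those of Itgad on the other strand, an integrin gene that was at 0.282, 0.0321 and 0.05003 FPKM in CON and listed at 0 in 2 of the 3 stretched libraries, with 0.0244 FPKM in 4H replicate 2. The share of reads that the 2 genes could exchange was not tested.

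Cox6a1, the form of other tissues, was expressed at 136 ± 8 FPKM in CON and 115 ± 9 FPKM in 4H (SD, n = 3), so it was the main form in both groups. It fell by 0.24 on the log2 scale (SE 0.06, limma adjusted p = 0.0145), and the call was lost without CON replicate 3 (limma adjusted p = 0.0508). Cox7a2l, a factor of supercomplexes of complexes III and IV that is related to subunit 7a, was at 69.3, 71.2 and 68.3 FPKM in CON and 47.2, 49.2 and 46.2 FPKM in 4H. Both groups of Cox7a2l were tight and well apart (log2 fold change -0.55, SE 0.04, limma adjusted p = 8.89e-06). Its relative Cox7a2 had overlapping groups at 60.8 ± 5.2 and 56.7 ± 2.9 FPKM, with an interval of -0.25 to 0.05, and without CON replicate 2 it passed at -0.17 (limma adjusted p = 0.0282).

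Cox4i1, the regulatory subunit 4, fell from 185 ± 5 to 161 ± 7 FPKM (SD, n = 3; log2 fold change -0.20, limma adjusted p = 0.00326). Cox8a, a small subunit of the membrane part, fell from 94.98 ± 5.10 to 76.8 ± 6.9 FPKM (log2 fold change -0.31, limma adjusted p = 0.00620), and Ndufa4 fell from 109 ± 5 to 89.3 ± 5.5 FPKM (log2 fold change -0.29, limma adjusted p = 0.00258). Cox6b1, at the face that meets cytochrome c, had means of 81.4 ± 7.5 and 72.6 ± 3.3 FPKM and did not pass (log2 fold change -0.16, limma adjusted p = 0.0734), though without CON replicate 3 it did, at -0.22 (limma adjusted p = 0.0300). The row of the pseudogene Cox5b-ps had a log2 fold change of -0.36 (limma adjusted p = 0.0194) and Cox5b, the parent gene, of -0.33 (limma adjusted p = 0.0320, lost in 3 of the 6 fits that left out 1 library, without the filter, without the trend, with TPM and with a replicate block, with adjusted p of 0.0505 to 0.0963). Of the 75-base stretches of Cox5b-ps, 43.0% occur in other genes, so the reads of the 2 rows may not be cleanly divided. The call for Cox5b-ps was lost without CON replicate 1, 4H replicate 1 or 4H replicate 2 (limma adjusted p of 0.0643, 0.0592 and 0.0625).

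**Figure D3:**
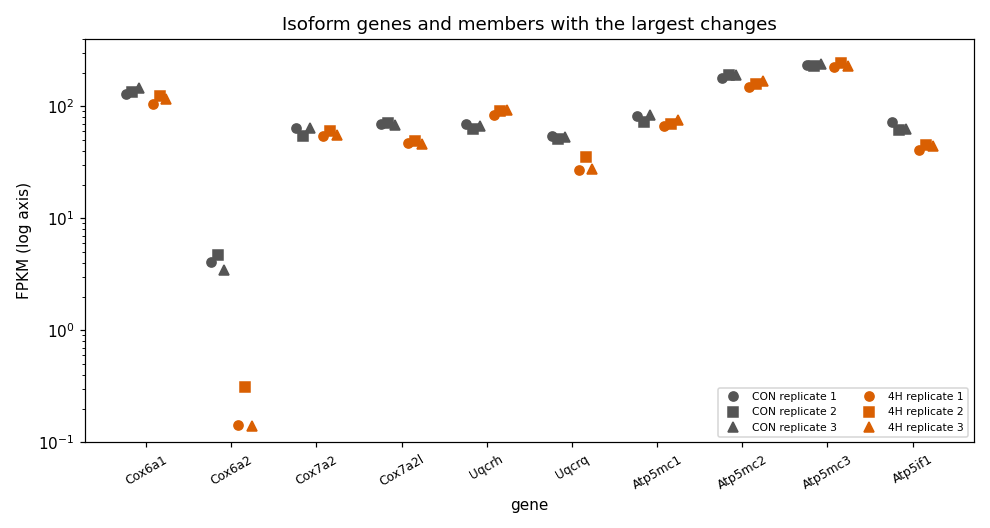
FPKM on a log axis in each of the 6 libraries for isoform genes of complexes IV and V and for members with large changes, with grey symbols for CON and orange symbols for 4H. Cox6a2 dropped from above 3 to below 0.4 FPKM and Uqcrq lay lower in all 4H libraries, Uqcrh lay higher, and Atp5mc3 overlapped.

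Complex V is a rotary enzyme with a catalytic F1 head, a stalk and a membrane part that holds a ring of c subunits. Of 19 nuclear members 18 were tested. Of these 11 fell (61.1%, beside 24.1% of all tested genes) and none rose (0 at adjusted p of at most 0.05 in limma, beside 22.6%). Their median log2 fold change was -0.25. All 5 subunits of the F1 head fell, with log2 fold changes from -0.34 to -0.11. The smallest fall, of Atp5f1c (the gamma subunit), was not called without the trend in limma, with TPM or with rescaling without mtDNA genes (limma adjusted p of 0.0653, 0.0637 and 0.0681). Atp5f1b, the catalytic beta subunit and the highest nuclear member, was at 793, 795 and 800 FPKM in CON and 664, 669 and 677 FPKM in 4H. The spread within each group was small beside the gap, and Atp5f1b fell by 0.25 on the log2 scale (SE 0.02, limma adjusted p = 5.00e-05). After quantile normalization, which gives genes of equal rank in the libraries the same value, its log2 fold change was 0.0089 (limma adjusted p = 0.792).

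Atp5if1, the inhibitor that stops ATP synthase from running backwards, was at 72.6, 60.9 and 62.7 FPKM in CON and 40.6, 45.02 and 44.0 FPKM in 4H. No stretched library reached a control, and Atp5if1 fell by 0.59 on the log2 scale (SE 0.07, limma adjusted p = 0.000238). Its exons overlap those of Gm12999 on the other strand. Atp5po, the stalk subunit that joins head and membrane part, fell from 145 ± 7 to 107 ± 4 FPKM (SD, n = 3; log2 fold change -0.44, limma adjusted p = 9.61e-05). A second row named Atp5po was listed at 0 in every library, and 27.1% of the 75-base stretches of the first occur in other genes. Atp5mg, subunit g of the membrane part, fell from 90.2 ± 7.4 to 71.1 ± 6.2 FPKM (log2 fold change -0.34, limma adjusted p = 0.00599), with 63.4% of its stretches in other genes. Atp5pb, the long arm of the stalk, was at 112 ± 2 and 114 ± 3 FPKM, with an interval of -0.04 to 0.11.

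The c ring is built from one mature protein that 3 genes encode. Atp5mc1 was at 81.8, 72.5 and 84.5 FPKM in CON and 66.2, 69.1 and 75.1 FPKM in 4H, with overlapping groups (log2 fold change -0.18, limma adjusted p = 0.0539). It passed without CON replicate 2, without 4H replicate 3 and with a replicate block (limma adjusted p of 0.0121, 0.0293 and 0.0322). Atp5mc2 fell from 187 ± 7 to 158 ± 11 FPKM (log2 fold change -0.24, SE 0.05, limma adjusted p = 0.00546), and 86.9% of its 75-base stretches occur in other genes. Atp5mc3 was at 233, 227 and 237 FPKM in CON and 225, 246 and 227 FPKM in 4H, with an interval of -0.09 to 0.09. Atp5mc3 thus made up 46.2% to 47.2% of the FPKM of the 3 genes in CON and 48.1% to 52.1% in 4H. These groups did not overlap, though by level 27.5% of all tested genes had every 4H library above every CON library. The share also depends on the level of Atp5mc2, most of whose stretches occur in other genes.

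The members that did not pass differed in their precision. For 12 of the 33 nuclear members the 95% confidence interval stayed within 0.2 of 0 on the log2 scale, among them Ndufs1, Uqcrc1, Sdhd, Cycs, Atp5mc3 and Atp5pb, a limit chosen after the values were seen. Some intervals lay below 0 and failed only after adjustment, as for Cox5a (-0.31 to -0.02), a subunit of complex IV. Others were wide, as for Uqcrb, a quinone-binding subunit of complex III at 59.5, 38.5 and 65.9 FPKM in CON, whose interval ran from -0.38 to 0.43. Of the 33, 24 had a negative log2 fold change.

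The CON means of the 13 mtDNA genes ran from 180 FPKM (mt-Nd3) to 7821 FPKM (mt-Co1), beside 796 FPKM for Atp5f1b, the highest nuclear member. All are read from long precursors that cover nearly a whole strand, and mt-Nd6 alone lies on the minus strand. Neighbouring protein genes of mtDNA overlap on the same strand of mm10, by a single base between mt-Atp6 and mt-Co3 (chrM:8607) and by more bases in 2 other places. The longer overlaps are shown because a fragment from them belongs to both genes. The first, at chrM:7927-7969, is the 43-base end of mt-Atp8, in which the capitals mark the start codon of mt-Atp6, and the second, at chrM:10167-10173, is the 7-base end of mt-Nd4l, in which they mark the start codon of mt-Nd4.
mt-Atp8 and mt-Atp6: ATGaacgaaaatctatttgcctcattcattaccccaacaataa
mt-Nd4l and mt-Nd4: ATGctaa
The sequences were read from the GENCODE M21 transcripts.

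Complex IV held the 2 mtDNA genes that fell. mt-Co2, the subunit that receives electrons from cytochrome c, at chrM:7013-7696, was at 3633, 3682 and 3689 FPKM in CON and 3134, 3115 and 3205 FPKM in 4H, a fall of 0.22 on the log2 scale (SE 0.02, limma adjusted p = 0.000139). mt-Co3, a structural core subunit at chrM:8607-9390, was at 2287, 2336 and 2297 FPKM in CON and 1931, 1919 and 2053 FPKM in 4H, a fall of 0.23 (SE 0.03, limma adjusted p = 0.000510). For both genes every stretched library lay below every control. Neither fall was called after quantile normalization, with log2 fold changes of 0.00 for mt-Co2 and -0.16 for mt-Co3 (limma adjusted p = 0.0507 for mt-Co3). That scaling gives genes of equal rank in the libraries the same value. A gene whose rank stays the same shows no change there, so the 0.00 of mt-Co2 does not decide on its fall. mt-Co1, which holds the oxygen site, overlapped between the groups with a log2 fold change of -0.03 (95% confidence interval -0.09 to 0.03).

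mt-Atp8 and mt-Atp6, the membrane subunits of complex V, lie between mt-Co2 and mt-Co3 on the same strand and overlapped between the groups. mt-Atp8 had means of 4078 ± 109 and 4071 ± 69 FPKM (SD, n = 3; interval -0.07 to 0.06) and mt-Atp6 of 4542 ± 173 and 4574 ± 10 FPKM (interval -0.06 to 0.08). After quantile normalization mt-Atp6 was at 0.21 (limma adjusted p = 1.44e-05).

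Of the 7 mtDNA genes of complex I, only mt-Nd1 passed the test. mt-Nd1, a core membrane subunit at chrM:2751-3707, was at 4000, 3920 and 3855 FPKM in CON and 4228, 4201 and 4579 FPKM in 4H and rose by 0.14 (SE 0.04, limma adjusted p = 0.0137). Its 3 stretched libraries were above the controls, with 4H replicate 3 the highest. The rise did not pass without the filter on low genes or without the trend in limma (adjusted p of 0.0927 and 0.0587). mt-Nd2 was also higher in every stretched library but did not pass, at 1504 ± 60 and 1603 ± 59 FPKM (log2 fold change 0.09, limma adjusted p = 0.0802). It passed with TPM, with rescaling without mtDNA genes and with the GC and length trend removed (limma adjusted p of 0.0278, 0.0280 and 0.0119), and after quantile normalization its log2 fold change was -0.0764 (limma adjusted p = 0.120).

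mt-Nd4 and mt-Nd4l had log2 fold changes of 0.02 and 0.03 and overlapping groups, though after quantile normalization mt-Nd4 was at -0.0755 (limma adjusted p = 0.00572). mt-Nd3, mt-Nd5 and mt-Nd6 had log2 fold changes of -0.05, -0.06 and 0.01 and overlapped too. mt-Cytb, the only mtDNA subunit of complex III, was at 4394, 4516 and 4431 FPKM in CON and 4390, 4364 and 4273 FPKM in 4H, all below the controls by little (log2 fold change -0.03, limma adjusted p = 0.281).

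Copies of mtDNA in the nuclear genome can share sequence with these genes. Of the 75-base stretches of mt-Co2 and mt-Co3, 99.5% and 99.9% also occur in transcripts annotated to other genes, as do 99.5% for mt-Atp6, 98.7% for mt-Nd4l, 97.8% for mt-Nd3, 61.5% for mt-Nd4 and 39.8% for mt-Co1. mt-Nd1, mt-Atp8, mt-Nd6 and mt-Cytb share none. The 12 other genes that share stretches with mtDNA members have no row in the table, and how reads with several matches were counted is not given in the sources used here. Among the 7 genes with at least 10% shared, 2 fell and none rose in limma, and among the 6 below this share none fell and 1 rose, too few to read against the background of 24.1% lower and 22.6% higher. The part of the copies in the changes of mt-Co2 and mt-Co3 was not tested.

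**Figure D4:**
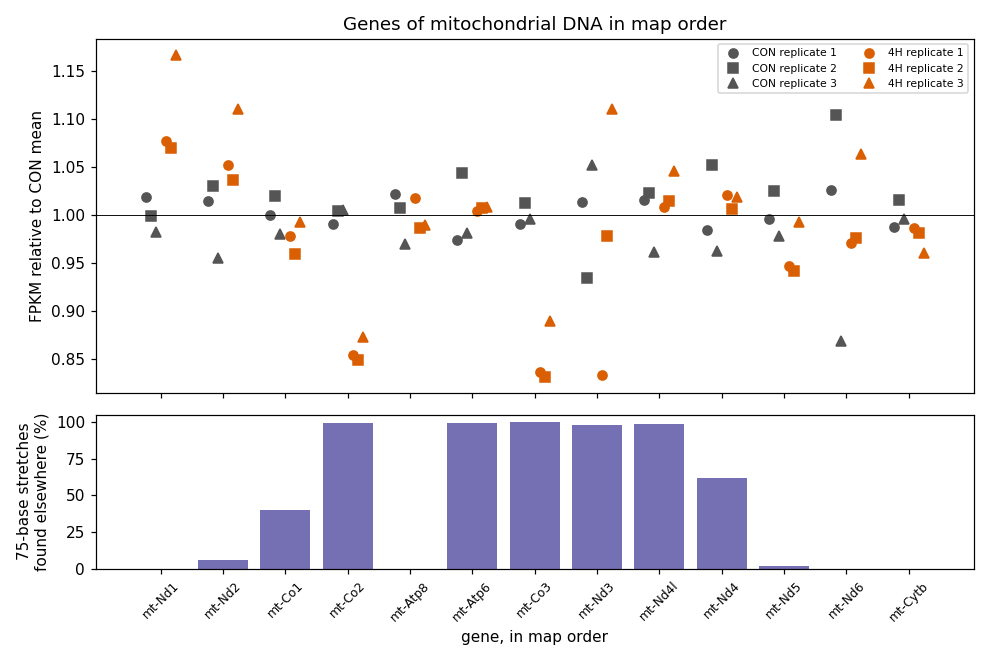
Above, the FPKM of each mtDNA protein gene in each library relative to its CON mean, in map order, with grey symbols for CON and orange symbols for 4H, and below, the percentage of its 75-base stretches found in transcripts of other genes. mt-Co2 and mt-Co3 lie at about 0.83 to 0.89 in the 4H libraries and mt-Nd1 lies above 1 in all 3, while mt-Atp8 and mt-Atp6 between them stay near 1.

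The nuclear transcripts of these complexes are short, with a median length of 745 bases over the tested members beside 2699 bases over all tested genes, and short transcripts were lower in 4H in general. Among all tested genes the median log2 fold change was -0.11 for the 188 genes under 600 bases, -0.08 for 760 genes of 600 to 1000 bases, -0.03 for 2778 genes of 1000 to 2000 bases and 0.00 for 7700 longer genes. In the same bins the nuclear members had medians of -0.29 (29 genes), -0.20 (26), -0.15 (20) and -0.15 (7). The member medians were thus below those of all tested genes in each bin, which include the members. The last bin does not match length closely, since members reach 3123 bases and all tested genes 123179 bases. The difference itself was not tested. The share of genes that fell was 33.0%, 33.4%, 26.4% and 22.3% over all tested genes in these bins, and 69.0%, 57.7%, 50.0% and 42.9% over the members. When a trend on GC content and length was removed from the log2 values of all genes, 46 nuclear members fell and the median of all tested nuclear members was -0.19.

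The 4H replicate 1 library was lowest for short genes. For members under 600 bases the medians against the CON mean were -0.44, -0.22 and -0.23 in 4H replicates 1, 2 and 3, and for all tested genes under 600 bases they were -0.20, -0.11 and -0.11. Across 81 nuclear members, leaving out the pseudogene Cox5b-ps, the Spearman correlation of the log2 fold change with length was 0.27, and with GC content it was -0.21, as a description of genes that share the same 6 libraries.

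**Figure D5:**
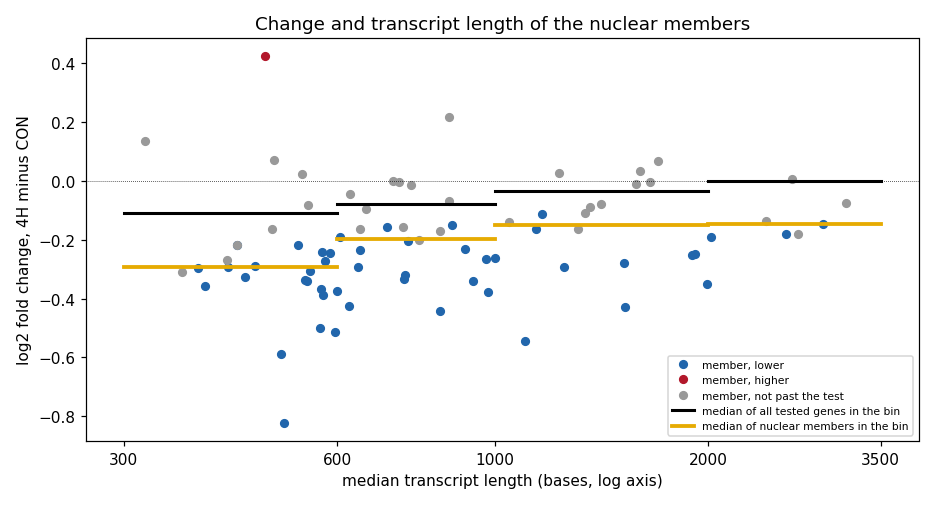
The log2 fold change (4H minus CON) of the nuclear members against transcript length on a log axis, with blue points for members that fell, red for the member that rose and grey for those that did not pass, leaving out Cox6a2 at -2.71. In each of the 4 length bins the median of the members (yellow) lies below that of all tested genes (black).

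Shared sequence was checked in the same way for nuclear members. Of the 54 tested members with under 1% of their 75-base stretches in other genes, 32 fell, none rose in limma, and the median log2 fold change was -0.21. Of the 51 whose exons overlap no other gene, 32 fell, 1 rose and the median was -0.23. Both medians were within 0.02 of that of all 82.

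Promoters were read from RefSeq (GRCm38.p6, the assembly of mm10) for 65 of the 82 tested nuclear members, 250 bases before each start. The nuclear respiratory factors NRF1 and GABPA, the latter of the ETS family, are known regulators of these genes, as is YY1. The letters GCGCATGCG, the core of an NRF1 site, were found on either strand in 10.8% of these 65 members and in 1.64% of all 27025 genes with a window. The letters CCGGAAG of an ETS site were in 18.5% and 7.83%, and AAGATGGC of a YY1 site in 1.54% and 1.83%. Shorter words were counted in the same way, CCAAT in 41.5% and 37.5% and the E-box CAGCTG in 7.69% and 14.7%. Members that fell and members that did not were then set side by side, 36 and 29 with a window. The NRF1 letters were in 8.33% and 13.8% of them, the ETS letters in 19.4% and 17.2%, the YY1 letters in none and 3.45%, CCAAT in 55.6% and 24.1% and the E-box in 5.56% and 10.3%, and these differences were not tested. A match is a description of letters and not a bound site.

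The stretches of 3 members are shown because they carry these letters and differ in response: Cox6a1 and Atp5mg, which fell, and Uqcrh, which rose. Capitals mark NRF1 and ETS matches, which in Cox6a1 include NRF1 matches on both strands that overlap. All 3 lie on the minus strand, at chr5:115348959-115349208, chr9:44920743-44920992 and chr4:116075071-116075320.
Cox6a1: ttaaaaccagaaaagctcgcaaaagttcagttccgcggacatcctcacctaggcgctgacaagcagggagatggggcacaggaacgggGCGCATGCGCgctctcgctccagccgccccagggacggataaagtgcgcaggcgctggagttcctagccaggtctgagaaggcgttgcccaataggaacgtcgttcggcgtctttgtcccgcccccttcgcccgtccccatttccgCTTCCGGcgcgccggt
Atp5mg: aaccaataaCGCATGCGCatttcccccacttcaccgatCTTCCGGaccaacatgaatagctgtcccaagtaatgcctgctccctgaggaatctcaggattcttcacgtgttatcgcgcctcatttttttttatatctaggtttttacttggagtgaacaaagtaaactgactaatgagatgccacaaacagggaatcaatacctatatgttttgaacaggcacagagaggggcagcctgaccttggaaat
Uqcrh: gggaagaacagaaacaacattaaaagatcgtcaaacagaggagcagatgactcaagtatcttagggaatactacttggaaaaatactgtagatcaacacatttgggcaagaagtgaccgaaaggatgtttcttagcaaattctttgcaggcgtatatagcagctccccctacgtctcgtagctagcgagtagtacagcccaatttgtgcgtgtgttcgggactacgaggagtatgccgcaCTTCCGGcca
The 3 windows were picked for display, and Uqcrh was the only tested nuclear member that rose, so they do not compare the directions of change.

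Genes that serve the complexes without being part of them were counted from lists. Of 54 tested assembly factors, which help to build complexes I to V, 10 fell and 5 rose (18.5% lower beside 24.1% of all tested genes, median log2 fold change -0.05). In complex I, 4 of 17 fell and 2 rose. Ecsit and Foxred1 fell by 0.46 and 0.34 on the log2 scale (limma adjusted p of 0.000342 and 0.00919), while Ndufaf3 and Acad9 rose by 0.26 and 0.17 (limma adjusted p of 0.0278 and 0.0162). The rise of Ndufaf3 was lost in 5 of the 6 fits that left out 1 library, and that of Acad9 without CON replicate 3 or 4H replicate 1.

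For complexes II to V the counts were smaller. Sdhaf2, which inserts the flavin of Sdha, was 1 of 4 to rise, by 0.16 (limma adjusted p = 0.0453). This was lost in 4 of the 6 fits that left out 1 library, without the filter and without the trend (limma adjusted p of 0.0692 and 0.0791 in the last 2). Of 5 complex III factors, Bcs1l, which inserts the iron-sulphur protein, fell by 0.33 (limma adjusted p = 0.0102) and Ttc19 rose by 0.23 (limma adjusted p = 0.0273, lost in 4 of those 6 fits). Of 24 complex IV factors 5 fell (20.8%, beside 24.1% of all tested genes) and 1 rose. Lrpprc, which stabilises mtDNA transcripts, fell by 0.44 (limma adjusted p = 0.000228), Cox16 by 0.31 (limma adjusted p = 0.0308, lost in 3 of those 6 fits), and Cox19 rose by 0.24 (limma adjusted p = 0.0261, lost in 3 of those 6 fits). Without CON replicate 3 the log2 fold change of Cox16 was -0.20. The Cox16 call was also lost without the filter and without the trend (limma adjusted p of 0.0629 and 0.0577). Of 4 complex V factors none passed in limma.

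The list for mtDNA transcription and maintenance had 8 of 19 lower (42.1%, beside 24.1% of all tested genes), none higher in limma, and a median of -0.19. Tfam, which packs mtDNA and starts its transcription, was at 18.1, 18.0 and 19.6 FPKM in CON and 14.9, 13.3 and 13.8 FPKM in 4H, a fall of 0.40 (SE 0.06, limma adjusted p = 0.000906). Ssbp1, the single-strand binding protein of mtDNA, fell from 37.1 ± 1.5 to 27.3 ± 1.6 FPKM (log2 fold change -0.44, limma adjusted p = 0.000259). The mtDNA transcripts themselves had, as above, a median log2 fold change of -0.0022.

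Of 15 tested nuclear regulators of mitochondrial biogenesis, 2 fell (13.3%, beside 24.1% of all tested genes) and 2 rose, with a median of -0.04. Pprc1, a serum-responsive coactivator, fell from 26.3 ± 1.2 to 20.6 ± 0.5 FPKM (log2 fold change -0.34, limma adjusted p = 0.000507), and Gabpb2, a partner of GABPA, fell by 0.17 (limma adjusted p = 0.0116). Esrra, a nuclear receptor that drives these genes, rose from 11.5 ± 1.0 to 15.3 ± 0.5 FPKM (log2 fold change 0.39, limma adjusted p = 0.00194), and Prkaa1, a catalytic subunit of AMP-activated kinase, rose by 0.24 (limma adjusted p = 0.00123). Ppargc1a, the best known coactivator of the programme, was low at 0.540 ± 0.063 and 0.681 ± 0.094 FPKM and did not pass (log2 fold change 0.18, limma adjusted p = 0.309). Ppargc1b, Nrf1 and Gabpa did not pass either, with log2 fold changes of -0.28, -0.01 and -0.10 (limma adjusted p of 0.0975, 0.955 and 0.154), and Ppargc1b passed after quantile normalization (-0.39, limma adjusted p = 0.0318).

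In the citric acid cycle 5 of 14 genes fell (35.7%, beside 24.1% of all tested genes) and 3 rose, with a median of -0.01. Dld and Suclg2 fell by 0.28 and 0.27 (limma adjusted p of 0.000203 and 0.00131), while Ogdh and Dlst, which work in the same complex as Dld, rose by 0.22 and 0.14 (limma adjusted p of 0.0131 and 0.0116). Of 12 carriers and porins of the mitochondrial membranes, 3 fell (25.0%, beside 24.1% of all tested genes) and 2 rose, with a median of -0.07. Vdac3, a porin of the outer membrane, fell from 149 ± 3 to 103 ± 4 FPKM (log2 fold change -0.52, limma adjusted p = 1.12e-05), and Slc25a5, which exchanges ADP for ATP, fell from 383 ± 7 to 312 ± 7 FPKM (log2 fold change -0.30, limma adjusted p = 7.05e-05). Ucp2, an uncoupling protein relative, and Slc25a11, the oxoglutarate carrier, rose by 0.41 and 0.17 (limma adjusted p of 0.00719 and 0.0141).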

How the data were processed

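Poly(A)-selected, strand-specific libraries were sequenced in pairs by the authors, who deposited 1 table of FPKM values. The submitters' processing notes name mm10, while the sources used here name no aligner, counter or annotation. Libraries titled 4H1, 4H3 and 4H4 are 4H replicates 1, 2 and 3 by the replicate numbers in the labels' descriptions. All columns were used. The fits used limma 3.58.1 under R 4.3.3 (lmFit, eBayes with trend) on log2(FPKM + 0.5), for genes that averaged 0.5 FPKM or more, with Benjamini-Hochberg adjustment. The procedure was tested on simulated data with 200 changed genes, each changed by more than most members here. In these data 5409 genes passed, so the simulation does not speak for changes as many or as small as these. Positions, lengths and shared 75-base stretches came from GENCODE M21, which holds all 104 members. Tables were made with Python 3.11.15 and pandas 2.3.3. Named genes were every mtDNA, complex II and cytochrome c gene, the 3 largest rises and falls past the test in complexes I, IV and V (2 in complex III), the isoform groups, from each list the 2 largest rises and falls past the test, and 7 regulators (Ppargc1a, Ppargc1b, Pprc1, Nrf1, Gabpa, Esrra, Tfam). Ndufs1, Ndufs8, Uqcrb, Uqcrc1, Uqcrc2, Cox5a, Cox5b, Atp5f1b, Atp5f1c and Atp5pb were named after their values were seen. Members and lists were chosen with earlier results of these data known. Other pseudocounts, filters, scalings and left-out libraries were tried as alternatives. Protein sequences and the promoters of 17 tested nuclear members, Cox6a2, Uqcrq and Atp5if1 among them, were not used here. The comparisons with rabbit diaphragm and with other stretch times were not analysed here.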

Additional observations from a re-analysis of the deposited data

How the results depend on the processing

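The count of nuclear members that fell was 48 and ranged from 41 to 48 over the 11 other settings and from 38 to 50 in the 6 fits without 1 library, and the tested nuclear members together had a median log2 fold change of -0.25 to -0.18 in all of them. Uqcrh rose in every one. The mtDNA calls changed with several settings. With quantile normalization 1 mtDNA member fell and 2 rose. There mt-Co2 had a log2 fold change of 0.00, mt-Co3 of -0.16 (limma adjusted p = 0.0507) and mt-Atp6 of 0.21 (limma adjusted p = 1.44e-05). mt-Nd4 turned from 0.02 to -0.0755 (limma adjusted p = 0.00572) and Atp5f1b from -0.25 to 0.0089 (limma adjusted p = 0.792). This scaling gives genes of equal rank in the libraries the same value, so a gene of unchanged rank shows no change. It therefore does not decide whether such a gene changed. The part of ranks in the other shifts was not tested. The mtDNA members that rose numbered 2 with TPM, with rescaling without mtDNA genes and with the GC and length trend removed, the second being mt-Nd2, and 0 without the filter or without the trend in limma (mt-Nd1 adjusted p of 0.0927 and 0.0587). The median of the mtDNA members was 0.0341 with TPM and 0.0354 with rescaling without mtDNA genes. These 2 scalings moved the median of all genes from -0.01 to 0.03 and 0.02. With genes under a mean of 5 FPKM left out, no member passed a log2 fold change of 1 (count 0 in limma), since Cox6a2 was below the filter. In the 6 fits without 1 library the number of mtDNA members that fell was 2, that of mtDNA members that rose 1, and that of members past a log2 fold change of 1 was 1.

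With a replicate block, 47 nuclear members fell and the other counts were as without it, and Atp5mc1 passed (adjusted p = 0.0322) while Ndufaf3, Sdhaf2, Cox19, Cox5b, Cox6c and Ndufb11 did not. Samples with the same number in the descriptions did not deviate together (correlations of 0.03, -0.09 and -0.13), so these numbers were not taken to pair the samples. By the numbers in the titles only C1 with 4H1 and C3 with 4H3 would be pairs (correlations of 0.03 and 0.18), and no block was fitted on those. The read depth is unknown, which limits what can be said of low members such as Cox6a2.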
